A study of Homo sapiens with 12 samples.

Results

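The serum starvation response of HEK293T cells is described here from 8 of the 12 libraries of a TRPML3 overexpression study. The 4 starved libraries of replicates 1 and 2 were compared with the 4 fed libraries of the same replicates, with the plasmid as a block. The 4 libraries of replicate 3 were set aside because they had been seen to disagree with the others. The p-values of this contrast therefore rank and select genes and are a description, not a test. A gene is called part of the response where its adjusted p lay under 0.05 (edgeR quasi-likelihood fit, Benjamini-Hochberg adjustment over all genes tested). Replicate 3 is no independent test either, since its disagreement was known when the libraries were chosen.

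HEK293T is an established human embryonic kidney line that is easily transfected. All cells received 1 µg of plasmid with a lipid-based reagent, either a control vector or one for TRPML3, the endolysosomal cation channel encoded by MCOLN3. They were then kept in 10% serum (fed) or held for 4 h in medium with no serum (starved), a treatment meant to induce autophagy. Polyadenylated RNA was sequenced in 3 biological replicates per group, so 2 libraries each of vector fed, vector starved, TRPML3 fed and TRPML3 starved cells enter the comparison. Both plasmid arms were transiently transfected, so no untransfected cells are compared, and the labels do not say whether replicates were transfected on separate days. Levels are CPM, counts scaled to a common library total, with TMM scaling over all 12 libraries. Values for fed or starved cells are listed in the order vector 1, vector 2, TRPML3 1 and TRPML3 2, and differences are log2 fold changes of starved against fed cells.

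Library totals lay between 33101540 and 43700547 counts, and a floor of 3 counts lay at or below 0.0906 CPM in each library. MCOLN3 (ENSG00000055732) stood at 9.31 to 18.4 CPM in the 6 vector libraries and at 4926 to 58190 CPM in the 6 TRPML3 libraries, as labelled. All 11 markers of HEK293T cells on a fixed list passed the expression filter, and their summed level, to which VIM gave up to 586 CPM, was 748 to 1010 CPM in fed and 782 to 1000 CPM in starved cells. Of the 11, LHX1 (-1.81 ± 0.36) and NEFM (-0.47 ± 0.10) were called lower in starved cells, and the list's median log2 fold change was -0.27. Of 12 markers of other cell types, 9 stayed under 1 CPM in every library and HBB had no count. The highest was the collagen gene COL3A1, at 14.8 to 21.7 CPM over the 12 libraries, so this list was not silent. The mitochondrial share of the counts ran from 1.07% to 4.4% in the fed and from 1.05% to 3.08% in the starved libraries of replicates 1 and 2, so the groups overlapped.

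Serum supplies growth factors, insulin-like signals and lipids. Growth factor receptors act through the RAS, RAF, MEK and ERK kinases, which switch on immediate early transcription factors and their own feedback inhibitors, and through PI3K and AKT, which keep FOXO factors out of the nucleus and feed into mTORC1. The mTORC1 kinase sits on the lysosome, promotes ribosome production and restrains autophagy and the lysosomal MiT/TFE factors. Sterol supply is sensed in the endoplasmic reticulum, where INSIG proteins hold back the SREBP factors that drive cholesterol synthesis.

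The library labels have to be read with replicate 3 in view. On a scale set for each gene at 0 for the mean of the 4 fed and 1 for the mean of the 4 starved libraries of replicates 1 and 2, the median position over the genes of the response was -0.04 to 0.04 in those fed libraries and 0.95 to 1.04 in those starved libraries. In replicate 3, the library labelled vector fed had a median position of 0.94 and that labelled TRPML3 fed 0.88. The library labelled vector starved lay at 0.66 and that labelled TRPML3 starved at 0.49. Over these genes, 86% were nearer the starved than the fed mean in the vector fed library of replicate 3 and 81.8% in the TRPML3 fed library. The MCOLN3 level in TRPML3 cells went the same way: 6208 and 4926 CPM fed against 41360 and 58190 CPM starved in replicates 1 and 2, but 40010 CPM fed against 16910 CPM starved in replicate 3. Whether a mix-up of labels, a difference in treatment or something else lies behind this was not tested, so the label of each replicate 3 library is in doubt and no replicate 3 difference can be read firmly as starved against fed. Results below are given with and without these 4 libraries.

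**Figure D1:**
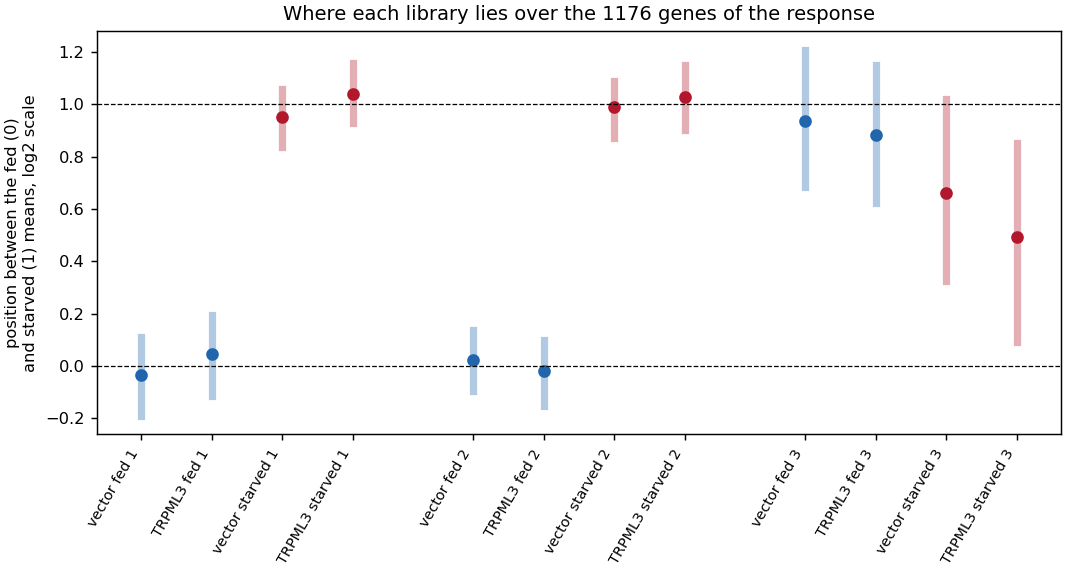
Median position of each of the 12 libraries over the 1176 genes of the response, from 0 (mean of the 4 fed libraries of replicates 1 and 2) to 1 (mean of the 4 starved libraries of replicates 1 and 2), on the log2 scale, with bars from the lower to the upper quartile over genes. The positions of replicates 1 and 2 follow from the choice of genes, while the fed libraries of replicate 3 lie at 0.94 and 0.88.

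Of 18052 genes tested, 1176 were called (6.51%), 650 higher (3.6%) and 526 lower (2.91%) in starved cells. The median log2 fold change was 0.94 among the genes called higher and -1.04 among those called lower, and 290 and 282 of them differed by at least 1 log2 unit. The 4 starved and 4 fed libraries did not overlap for 635 of the 650 and 521 of the 526, against 10.2% of all genes tested without overlap and higher and 10.1% without overlap and lower. This was nearly fixed in advance, since the same libraries selected the genes. With library size as the only scaling the split turned to 453 higher and 766 lower, and the median of all genes tested moved from -0.02 to -0.13. The call rests on every library. Without 1 of them, 389 genes were called (vector fed 1 left out), 313 (vector fed 2), 240 (vector starved 1), 180 (vector starved 2), 511 (TRPML3 fed 1), 295 (TRPML3 fed 2), 132 (TRPML3 starved 1) and 312 (TRPML3 starved 2). In bulk libraries a change in every cell and a change in some of the cells cannot be told apart.

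Lists of genes from general knowledge were used to say which pathways make up the response. Apart from zinc finger genes and cell markers they hold 70 of the 650 genes called higher (10.8%) and 56 of the 526 called lower (10.7%), against 6.15% of all genes tested, so most of the response lies outside them. In the plot of called shares per list, the largest shares called lower were in the FOXO and MondoA targets, immediate early genes and ERK feedback genes. The largest shares called higher were in nucleolar ribosome biogenesis, aminoacyl-tRNA synthetase and proteasome genes, leaving aside a list with 2 members.

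**Figure D2:**
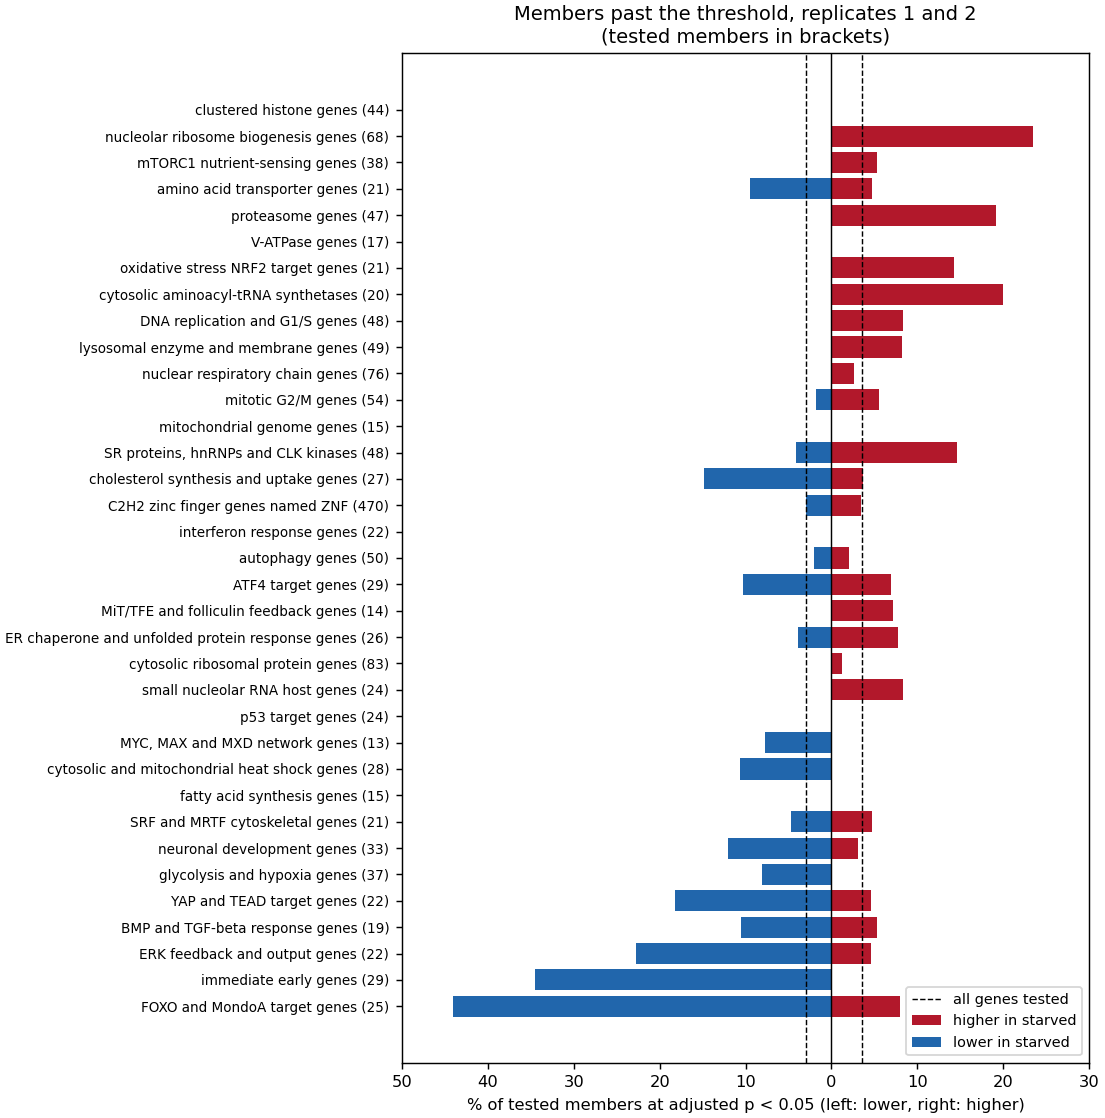
Share of the tested members of each gene list called lower (left) or higher (right) in the starved cells of replicates 1 and 2, for lists with at least 10 tested members in the order of their median log2 fold change. Dashed lines mark 2.91% lower and 3.6% higher among all genes tested, and the longest bar is the 44% of FOXO and MondoA target genes that were lower.

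Immediate early genes downstream of growth factor signalling were called lower in part. Of 29 immediate early genes tested, 10 were called lower (34.5%) and 0 higher, and the median log2 fold change of the list was -0.65 against -0.02 for all genes tested. The 10 were the nuclear receptors NR4A1, NR4A2 and NR4A3, the AP-1 and ATF family factors JUN, FOSL2, MAFF and ATF3, the factor KLF4, the MAP kinase phosphatase DUSP1 and the mRNA decay factor ZFP36. With each of the 8 libraries left out in turn, 3 to 6 were called lower. NR4A3 stood at 52.7, 41.7, 45.1 and 60.1 CPM in fed cells and at 11.4, 13.5, 11.3 and 11.9 CPM in starved cells. Its lowest fed library was above its highest starved library by a wide margin, and the log2 fold change was -2.04 ± 0.17 (SE). DUSP1 went from 86.3, 94.4, 88.1 and 89.2 CPM fed to 35.8, 38.3, 38.3 and 50.1 CPM starved, a log2 fold change of -1.13 ± 0.13. JUN, the most abundant of the 10 members called, had 730 ± 83.2 CPM fed and 405 ± 16.9 CPM starved (SD, n = 4).

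The classical members FOS and EGR1, looked at after their values were seen, were not called. FOS had 17.3, 30.7, 50.4 and 32.3 CPM fed and 20.6, 24.7, 33.5 and 30.9 CPM starved, and EGR1 had 210, 343, 466 and 318 CPM fed and 309, 326, 271 and 393 CPM starved. In both genes the starved values lay inside the range of the fed ones. In replicate 3 these members were higher in the libraries labelled starved: EGR1 stood at 39.4 CPM fed and 196 CPM starved in vector cells and at 49.2 and 199 CPM in TRPML3 cells. DUSP1 and JUN also went the other way there, by 1.32 and 1.28 log2 units up in vector cells.

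Many immediate early promoters carry sites for the cAMP-responsive factors CREB and ATF, whose binding motif is TGACGTCA or its arm TGACG. The upstream sequences of NR4A3 and DUSP1, the members with the smallest p, are shown because these genes moved together. They span the 250 bases before the start of NR4A3 (chr9:99821635-99821884, plus strand) and of DUSP1 (chr5:172771196-172771445, minus strand), from RefSeq on GRCh38.p14, written 5′ to 3′ along the gene, with matches to TGACG on either strand in capitals.
NR4A3: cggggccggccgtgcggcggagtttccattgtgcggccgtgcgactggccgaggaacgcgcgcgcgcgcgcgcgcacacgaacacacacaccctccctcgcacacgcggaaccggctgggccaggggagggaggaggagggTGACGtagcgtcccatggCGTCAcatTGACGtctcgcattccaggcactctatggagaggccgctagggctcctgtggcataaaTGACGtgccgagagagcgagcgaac
DUSP1: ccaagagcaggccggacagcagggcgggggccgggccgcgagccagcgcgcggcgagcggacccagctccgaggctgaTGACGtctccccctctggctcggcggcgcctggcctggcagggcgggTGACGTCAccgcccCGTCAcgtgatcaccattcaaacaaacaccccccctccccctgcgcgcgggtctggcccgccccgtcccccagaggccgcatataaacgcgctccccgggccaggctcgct
Each holds 4 matches, counted on both strands and with overlaps allowed, so that the palindrome TGACGTCA in DUSP1 counts as a pair. At least 1 match was found in 6 of the 9 called immediate early genes with an entry and in 15 of the 22 tested ones, against 34.2% of the promoters of all tested genes and 21.2% of all promoters of this length. A match is a description of letters and not a bound site.

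Feedback inhibitors of ERK signalling were among the most changed genes. Of 22 ERK feedback and output genes, 5 were called lower (22.7%) and 1 higher, with a median of -0.58. SPRY4, which restrains receptor tyrosine kinase signalling to ERK, had 4.17, 9.98, 17.4 and 9.94 CPM fed and 0.588, 0.695, 0.847 and 1.47 CPM starved. DUSP6, the cytoplasmic ERK phosphatase, had 3.21, 4.02, 6.21 and 4.5 CPM fed and 0.661, 0.561, 0.496 and 0.509 CPM starved. Fed and starved libraries were apart in both genes, with log2 fold changes of -3.50 ± 0.38 and -2.97 ± 0.27. The relatives DUSP5 (-1.23 ± 0.17) and SPRY2 (-0.88 ± 0.16) and the receptor EPHA2 (-0.61 ± 0.13) were lower by less, and the transcription factor TFAP2A was higher (0.88 ± 0.18). With 1 library left out, 2 to 4 of the list were called lower. In replicate 3, DUSP6 was at 0.631 CPM in the vector fed and 1.04 CPM in the TRPML3 fed library, below every fed library of replicates 1 and 2, and at 0.992 and 1.16 CPM in the starved ones.

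Other targets of serum and contact signals gave smaller counts. Of 22 YAP and TEAD target genes 4 were called lower (CCN1, GADD45B, F3 and NUAK2) and 1 higher (FJX1), with a median of -0.31, but none of the lower ones was called with any 1 library left out. Of 19 BMP and TGF-beta response genes, SMAD7, the inhibitory SMAD (-1.19 ± 0.23), and TGIF1 were lower and the matrix protein gene LTBP2 (1.47 ± 0.21) was higher. Of 21 SRF and MRTF cytoskeletal genes, ACTB was higher (983 ± 120 CPM fed, 1480 ± 54.8 CPM starved, SD, n = 4) and CNN3 lower (-0.35 ± 0.08). MYC was not called, at 99.6 ± 25.9 CPM fed and 149 ± 7.91 CPM starved (SD, n = 4).

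FOXO and MondoA targets made up the list with the largest share of called genes, 13 of 25 (52%). Of these, 11 were lower (44%) and 2 higher, and the median was -0.79. FOXO targets are known as genes held down by AKT in the presence of growth factors, and MondoA targets as genes switched on by glucose phosphates. CCNG2, an atypical cyclin that restrains the cell cycle, had 101, 88.3, 92.1 and 93.1 CPM fed and 40.5, 32.8, 35.8 and 39.8 CPM starved. The 4 fed values were close to each other and all more than the starved values, with a log2 fold change of -1.32 ± 0.12. TXNIP, an arrestin-fold protein that restrains glucose uptake, had 235, 189, 83.6 and 194 CPM fed and 56.6, 52.6, 30.2 and 47.7 CPM starved (-1.88 ± 0.29). Its TRPML3 replicate 1 library was the lowest of both the fed and the starved group, and the groups did not overlap. Its relatives ARRDC4 (-1.27 ± 0.15) and ARRDC3 (-2.90 ± 0.61) were lower too.

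Of the FOXO targets in the list, the pyruvate dehydrogenase kinase PDK4 fell by 1.46 log2 units, the muscle atrophy ubiquitin ligase FBXO32 by 1.40, the repressor BCL6 by 1.51 and the stress protein gene GADD45A by 1.09. The insulin pathway genes IRS2 (-1.01 ± 0.16), INSR (-0.67 ± 0.12) and FOXO1 itself (-0.55 ± 0.11) were lower by less. The antiproliferative gene BTG1 (1.80 ± 0.32) and the factor KLF15 (1.47 ± 0.26) were higher. FOXO3 and SESN3, named after their values were seen, were not called, at -0.47 ± 0.16 and -0.79 ± 0.28. With each library left out in turn 3 to 9 members were called lower. The median of the list was 0.06 in vector and 0.08 in TRPML3 cells of replicate 3.

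The upstream sequence of TXNIP is shown because it is a gene in which a paired MondoA-type element is well known. The 250 bases before its start (chr1:145996580-145996829, minus strand, RefSeq, GRCh38.p14) are written 5′ to 3′ along the gene, with the match to a paired E-box-like site, a pair of CACG-containing boxes a fixed distance apart, in capitals.
TXNIP: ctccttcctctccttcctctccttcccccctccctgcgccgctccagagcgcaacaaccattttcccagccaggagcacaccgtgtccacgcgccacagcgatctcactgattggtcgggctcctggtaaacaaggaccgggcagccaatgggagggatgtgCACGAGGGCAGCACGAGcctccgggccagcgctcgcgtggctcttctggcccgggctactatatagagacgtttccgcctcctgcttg
This motif, searched on both strands, was found in 16 of 35116 promoters of this length (0.05%). Of the 11 called members of the list with an entry, 1 held it, TXNIP itself. The forkhead letters GTAAACA were in 3 of these 11 and in 4 of the 23 tested members with an entry, against 3.11% of the promoters of tested genes. The match does not show that a factor was bound in these cells.

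Sterol genes were split. Of 27 cholesterol synthesis and uptake genes 4 were called lower (14.8%) and 1 higher, and the median of 0.09 changed sign with library size as the only scaling. INSIG1, which encodes an INSIG protein that holds back SREBP, had 169, 179, 104 and 182 CPM fed and 46.3, 31.6, 26.1 and 39.4 CPM starved. The groups were apart, with a log2 fold change of -2.13 ± 0.24. The synthesis enzymes IDI1 (-0.88 ± 0.10) and MSMO1 (-1.23 ± 0.22) were lower as well. NSDHL, an enzyme of the same pathway, was higher (1.12 ± 0.20). None of 15 fatty acid synthesis genes was called by edgeR, with 3 at an unadjusted p under 0.05, while the DESeq2 Wald test called 2 of them lower. In replicate 3, INSIG1 went from 44.2 to 85.2 CPM in vector and from 67.2 to 87.8 CPM in TRPML3 cells.

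Amino acid genes also moved in both directions. SLC38A2, a sodium-coupled neutral amino acid transporter, had 1340, 1350, 1670 and 1760 CPM fed and 600, 602, 681 and 619 CPM starved. Every starved library was far below every fed library, and the log2 fold change of -1.27 ± 0.08 had an adjusted p of 0.00614 (edgeR, Benjamini-Hochberg), and 3 genes in all lay under 0.01. The other genes were the cold-inducible RNA-binding protein RBM3 and POP1, a subunit of RNase P and RNase MRP, the latter named after its values were seen. RBM3 had 253, 238, 231 and 239 CPM fed and 507, 511, 503 and 491 CPM starved (1.08 ± 0.07), with little spread in either group. POP1 had a log2 fold change of 2.19 ± 0.14. In replicate 3, RBM3 was at 643 and 577 CPM in the vector and TRPML3 fed libraries and at 589 and 567 CPM in the starved ones. All of these lay above every fed and every starved library of replicates 1 and 2.

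Of 29 ATF4 targets, genes of the integrated stress response, 3 were lower (SLC38A2, the mTORC1 inhibitor DDIT4 at -1.30 ± 0.14, and VLDLR at -1.24 ± 0.20) and 2 higher. The higher ones were the partner factor CEBPG (1.72 ± 0.21) and the leucine transporter subunit SLC7A5 (0.81 ± 0.14). CEBPG had 70.4, 92.4, 61.1 and 85.8 CPM fed and 188, 227, 301 and 315 CPM starved. In replicate 3 it was at 129 and 97.5 CPM in the fed and at 28.5 and 26.9 CPM in the starved libraries, so that its starved libraries lay below every library of replicates 1 and 2. The median of the list, 0.03, changed sign with library size as the only scaling. Of 20 cytosolic aminoacyl-tRNA synthetase genes, which charge transfer RNAs, 4 were higher (20%), among them FARSA, CARS1 and TARS1, and 0 lower, and 19 of the 20 had a positive value. Leaving out any 1 library left at most 1 of these called, and the replicate 3 medians were -0.04 and -0.13.

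Among 38 genes of the mTORC1 nutrient-sensing machinery, the kinase gene MTOR (0.89 ± 0.16) and the GATOR2 subunit gene SEH1L (0.77 ± 0.18) were higher and 0 lower. The share called was 5.26%, against 6.51% of all genes tested called in either direction and 3.6% called higher. The median of the list was 0.41. The split of the calls depended on the scaling and the tool. Library size as the only scaling gave 1 higher and 3 lower, DESeq2 size factors 1 and 1, and the DESeq2 Wald test 12 and 5. The list median stayed positive, from 0.253 to 0.46, under other scalings and with libraries or replicates left out (0.305 with library size only). MTOR had 107, 112, 73.8 and 104 CPM fed and 167, 208, 197 and 153 CPM starved, with no overlap. Neither was called when any 1 library was left out. In replicate 3 the medians of the list were -0.16 and -0.21.

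Starvation was applied to induce autophagy, and autophagy and lysosome genes gave different counts. Of 50 autophagy genes 1 was higher and 1 lower (4%), below the 6.51% of all genes tested, and the median of 0.04 changed sign with library size as the only scaling. SQSTM1, the cargo receptor p62, had 34.4, 34.5, 53.1 and 40.1 CPM fed and 114, 59.3, 106 and 109 CPM starved (1.28 ± 0.22). GABARAPL1, an ATG8 family member, had 164, 188, 169 and 163 CPM fed and 116, 101, 59.7 and 65.2 CPM starved (-1.04 ± 0.17). In both genes the groups did not overlap, and SQSTM1 was also the only called gene of 14 MiT/TFE and folliculin feedback genes. Of 49 lysosomal enzyme and membrane genes 4 were higher (8.16%, against 3.6% of all genes tested) and 0 lower, with a median of 0.20. The count was 1 to 3 with a library left out and 2 with library size as the only scaling. They were the acid phosphatase ACP2 (1.40 ± 0.16), the cystine transporter CTNS (1.76 ± 0.33), the protective protein CTSA (0.63 ± 0.13) and the chloride-proton exchanger CLCN7 (1.07 ± 0.24). ACP2 had 5.43, 5.48, 6 and 4.84 CPM fed and 16.2, 14.3, 14.4 and 12.5 CPM starved. None of 17 V-ATPase genes was called by edgeR, although 15 had a positive value (median 0.26) and 7 an unadjusted p under 0.05, and the DESeq2 Wald test called 3 higher.

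Some assembly factors of the ribosome were higher. Of 68 nucleolar ribosome biogenesis genes 16 were called higher (23.5%) and 0 lower, 60 had a positive value, and the median was 0.60. RRS1, an assembly factor of the large subunit, had 31.1, 34, 35.9 and 27.9 CPM fed and 84.2, 77.1, 106 and 99.4 CPM starved, a log2 fold change of 1.51 ± 0.14 with no overlap. DKC1, the pseudouridine synthase of H/ACA particles, had 401, 377, 399 and 390 CPM fed and 546, 540, 545 and 553 CPM starved, a small change (0.49 ± 0.07) with little spread. PES1, of the complex that matures the large subunit, had 53.5 ± 18 CPM fed and 164 ± 34.6 CPM starved (SD, n = 4). Further members called were IMP3 and RRP9 of the U3 particle, the nucleolar GTPase GNL3, the RNA polymerase I and III subunit POLR1C, the processing factors RRP12, RRP7A, UTP4, UTP20, NOP16, PNO1, PPAN and NIFK, and the helicase DDX18. Counts fell to between 1 and 10 with each library left out in turn, and library size as the only scaling gave 14 higher and 1 lower.

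In replicate 3 the median of this list was -0.14 in vector and -0.19 in TRPML3 cells. RRS1 was at 102 and 85.4 CPM in the fed libraries of replicate 3, within the range of the starved libraries of replicates 1 and 2, and at 87.7 and 68.7 CPM in the starved ones. By contrast with the assembly factors, only RPLP1 of 83 cytosolic ribosomal protein genes was called, and the median of that list was 0.00. RPLP1 had 38.6 ± 8.51 CPM fed and 204 ± 52 CPM starved (SD, n = 4). This gene shares sequence with processed copies, so its count is uncertain.

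Of 47 proteasome genes 9 were called higher (19.1%) and 0 lower, with a median of 0.28. They comprised the base ATPases PSMC3, PSMC4 and PSMC5, the lid and assembly genes PSMD11 and PSMD9, the core subunits PSMA5, PSMA6 and PSMB5 and the activator PSME3. PSMD11 had 138, 142, 139 and 147 CPM fed and 217, 231, 222 and 222 CPM starved (0.67 ± 0.08), with little spread within the groups. PSMA6 had 44.6, 50.4, 44.2 and 34.9 CPM fed and 79.8, 87.4, 78.2 and 143 CPM starved, with TRPML3 starved 2 well above the other starved libraries. With a library left out 0 to 3 members were called. In replicate 3 PSMD11 was at 209 and 223 CPM in the fed and at 200 and 202 CPM in the starved libraries, again in or near the starved range of replicates 1 and 2.

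Splicing factors moved in both directions. Of 48 SR protein, hnRNP and CLK genes 7 were higher (14.6%) and 2 lower (4.17%), with a median of 0.09 that changed sign with library size as the only scaling. That scaling gave 7 higher and 5 lower, and 1 to 7 were higher and 0 to 1 lower with a library left out. The SR proteins SRSF2 (1.49 ± 0.21), SRSF3 (0.59 ± 0.07), SRSF5 (0.96 ± 0.13) and SRSF6 (1.53 ± 0.23), the related TRA2B (0.67 ± 0.09) and the RNA-binding proteins HNRNPU (1.21 ± 0.18) and HNRNPA0 (0.70 ± 0.11) were higher. SON (-1.16 ± 0.17), a large nuclear speckle protein, and the splicing factor RBM39 (-0.41 ± 0.09) were lower. SRSF3 had 1330, 1390, 1530 and 1480 CPM fed and 1990, 2090, 2100 and 2370 CPM starved, with no overlap, and 1930 to 2020 CPM in the 4 libraries of replicate 3.

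**Figure D3:**
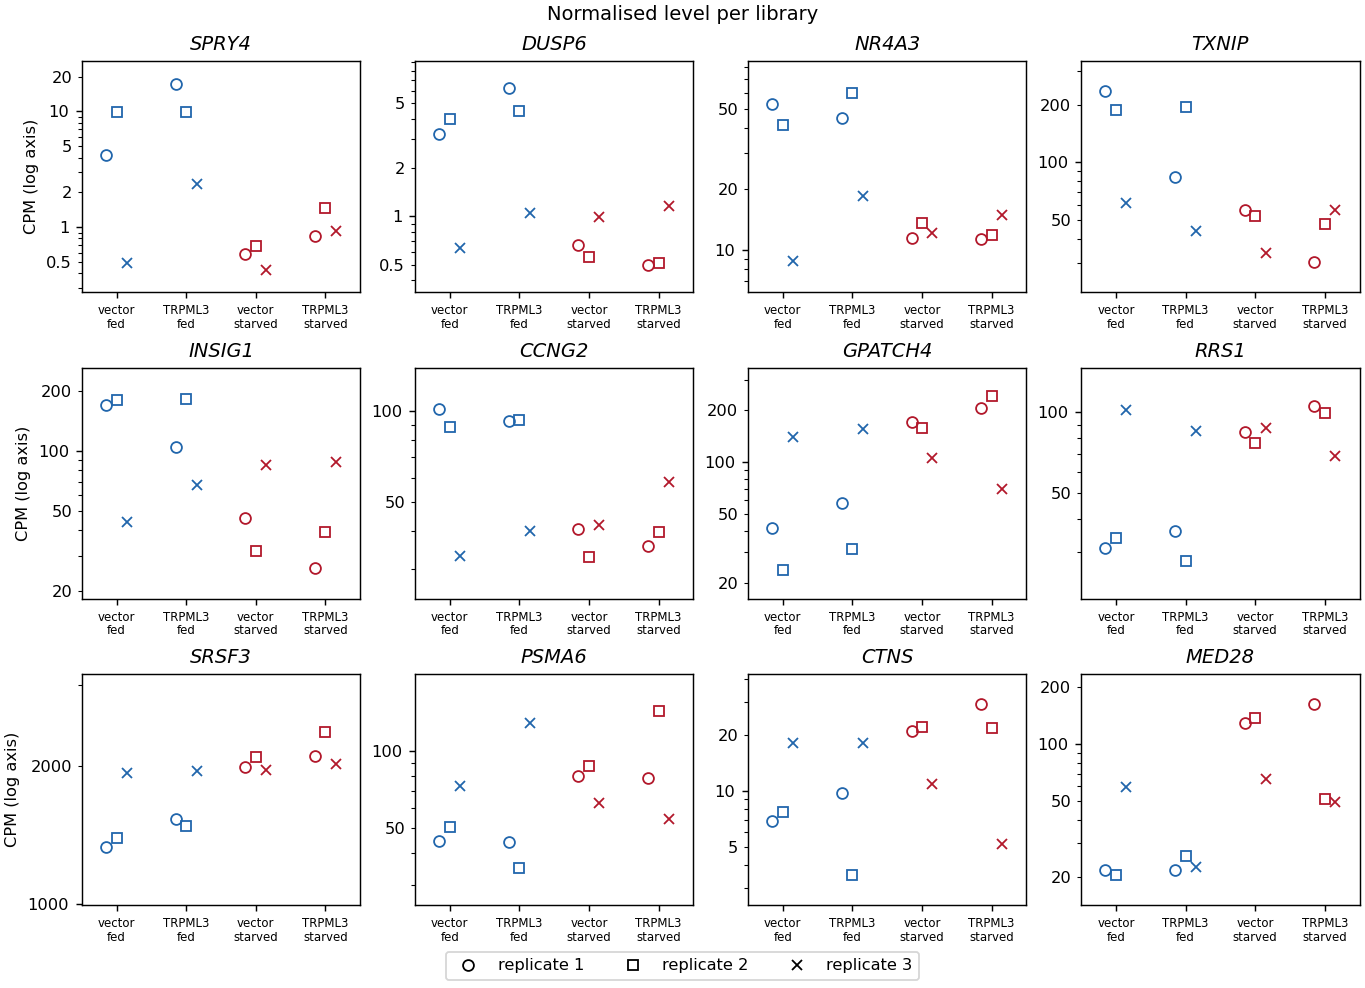
Level of 12 genes of the response in each of the 12 libraries, in CPM on a log axis, by plasmid and serum state, with the replicate number as the symbol. In each panel the fed and starved libraries of replicates 1 and 2 (circles and squares) do not overlap, while the fed libraries of replicate 3 (crosses) lie near or within the starved range in most panels.

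Cell cycle genes were called at shares near the 6.51% of all genes tested, 8.33% of the replication and 7.41% of the mitotic list. Of 48 DNA replication and G1/S genes 4 were higher (8.33%, against 3.6% of all genes tested) and 0 lower. They were the repair glycosylase UNG, the helicase subunit MCM7, GINS4 and the chromatin assembly factor CHAF1A. With a library left out 0 to 3 of the replication list were called higher. Of 54 mitotic genes CCNB1 (0.75 ± 0.10), CDC20 (0.56 ± 0.10) and BIRC5 (0.44 ± 0.09) were higher and HMGB2 lower (-0.69 ± 0.15). Leaving out a library gave 0 to 2 of the mitotic list higher and 0 to 1 lower. In replicate 3 the replication list had medians of -0.21 in vector and -0.16 in TRPML3 cells. Of its 4 called genes, MCM7 was higher there in both plasmids (0.34 and 0.41), CHAF1A in TRPML3 cells only (-0.24 and 0.55), and UNG (-0.51 and -0.36) and GINS4 (-0.15 and -0.69) in neither. The mitotic genes CCNB1, CDC20 and BIRC5 were higher in both pairs, by 0.16 to 0.46. None of 44 clustered histone genes was called by edgeR, with a median of 0.60 and low counts in these polyA libraries (median fed level 0.62 CPM). Of these, 11 had an unadjusted p under 0.05 and the DESeq2 Wald test called 5 higher.

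Each of the heat shock, endoplasmic reticulum, NRF2 and glycolysis lists had 3 called genes, so their shares rest on few genes. These shares ran from 8.11% for glycolysis, near the 6.51% of all genes tested, to 14.3% for NRF2 targets. Of 28 heat shock genes DNAJB4 (-1.04 ± 0.11), HSPA1B (-0.87 ± 0.10) and HSPA4L (-0.73 ± 0.13) were lower (10.7%, against 2.91% of all genes tested). HSPA1B has a near-identical neighbour copy, so its count is uncertain. Of 26 endoplasmic reticulum genes the chaperone partner DNAJB9 was lower (-1.24 ± 0.15) and DERL2 and CRELD2 higher (11.5% called). Leaving out a library gave 0 to 1 of this list higher and 1 lower. Of 21 NRF2 targets SQSTM1, GCLM (0.49 ± 0.10) and NQO1 (0.78 ± 0.16) were higher (14.3%), and at most 1 was called with a library left out. Of 37 glycolysis and hypoxia genes ANKRD37 (-1.55 ± 0.30), MXI1 and P4HA2 were lower (8.11%), with 0 to 2 called when a library was left out. In 24 p53 targets, 22 interferon genes and 15 mitochondrial genome genes 0 were called by edgeR, with 4, 2 and 1 at an unadjusted p under 0.05, and the DESeq2 Wald test called 2, 1 and 0. Of 76 nuclear respiratory chain genes COX7B and NDUFV3 were higher (2.63%, below the 3.6% of all genes tested). Among 33 neuronal development genes, several of which HEK293T cells express, the neurotrophin receptor NGFR (-1.99 ± 0.19), EFNB2, NEFM and SEMA3A were lower and POU3F2 higher (0.94 ± 0.17).

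The largest changes lay outside the lists for the most part. Among genes with at least 5 CPM in a group and no overlap, the 10 most raised were ZSCAN20, ENTPD1, WDR55, B3GALT6, WDR77, IDH3G, ADPRS, MED28, RPLP1 and GPATCH4, with log2 fold changes from 2.34 to 5.07. ENTPD1, the surface nucleotidase CD39, had 8.34, 8.7, 10.2 and 8.82 CPM fed and 104, 117, 20.1 and 117 CPM starved, with TRPML3 starved 1 far below the other starved libraries. GPATCH4, a G-patch protein, had 41.2, 23.5, 57.9 and 31.5 CPM fed and 171, 157, 205 and 242 CPM starved (2.34 ± 0.26). B3GALT6, a galactosyltransferase of the proteoglycan linker, had 1.73, 2.88, 3.02 and 1.82 CPM fed and 14.5, 11.8, 17.3 and 15.8 CPM starved (2.65 ± 0.26). The groups were far apart in GPATCH4 and B3GALT6. In MED28, a Mediator subunit gene, TRPML3 starved 2 (51.4 CPM) lay below the other starved libraries (129 to 163 CPM) and above all fed ones (20.4 to 25.8 CPM).

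The 10 most lowered genes were MEF2D, USP44, SPRY4, SLC16A6, KCNJ2, ARRDC3, BRSK1, IL1R1, GCNT4 and INSIG1, with log2 fold changes from -5.08 to -2.13. SLC16A6, of the monocarboxylate transporter family, had 18, 12.2, 20.2 and 12.8 CPM fed and 1.86, 1.34, 1.69 and 1.26 CPM starved (-3.35 ± 0.27), a wide gap. The inward rectifier potassium channel gene KCNJ2 (-3.13 ± 0.36) and the interleukin receptor gene IL1R1 (-2.22 ± 0.36) were lower in all starved libraries. Spread within a group was wide in some of the extreme genes: MEF2D ran from 2.26 to 16.6 CPM in fed cells and ZSCAN20 from 2.51 to 27.6 CPM in starved cells. In replicate 3 USP44 was at 8.75 CPM in vector fed and 8.46 CPM in TRPML3 starved cells but at 0.473 and 0.261 CPM in the other pair. Of the genes tested, 238 had no count in some library and at least 5 CPM in another, and 7 of these were called.

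The response was compared between plasmids by the interaction term, which the choice of libraries did not use. None of 18052 genes was called for a difference in response between vector and TRPML3 cells (edgeR, smallest adjusted p 0.101). An unadjusted p under 0.05 was seen in 723 (4.01%), and the DESeq2 Wald test called 135. The median SE of the interaction was 0.58 log2 units, so even large differences could be missed and the lack of calls does not show equal responses. Over the genes of the response the median size of the difference was 0.20, against 0.40 over all genes tested. Of the called genes, 14 of the 650 and 12 of the 526 had an unadjusted interaction p under 0.05. Small differences follow in part from the selection, since calling with plasmid as a block favoured genes that moved alike in both plasmids. GABARAPL1 was lower by 0.68 in vector and 1.40 in TRPML3 cells (difference -0.72 ± 0.21, adjusted p 1). MCOLN3 itself was at -0.63 in vector and 3.17 in TRPML3 cells, and was not called despite a difference of 3.80 ± 0.35 (adjusted p 0.163, edgeR). Its rise moved with the starved TRPML3 libraries and its part in their response was not tested. The vector libraries of replicates 1 and 2, at 9.31 to 17.3 CPM of MCOLN3, also entered the fit that called the genes. Their medians were 0.49 for nucleolar genes, -0.61 for immediate early genes and -0.60 for FOXO and MondoA targets. With 2 libraries on each side, 0 genes were called in vector cells by edgeR, where 2611 (14.5%) had an unadjusted p under 0.05, and 1 in TRPML3 cells (0.00554%).

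**Figure D4:**
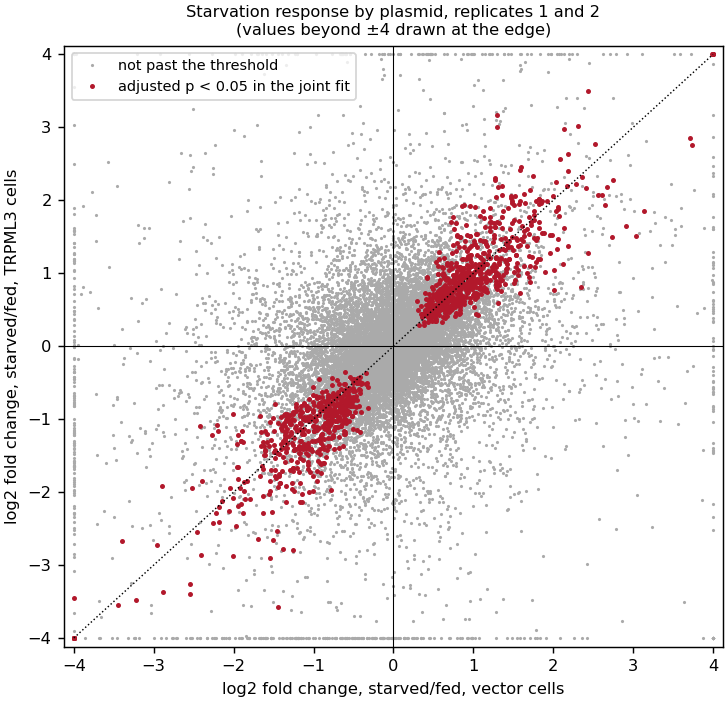
Log2 fold change of starved against fed cells in vector (x axis) and TRPML3 cells (y axis) of replicates 1 and 2, 1 point per gene tested, with the 1176 called genes in red and the dotted line marking equal change. Called genes lie near the line partly because genes that moved alike in both plasmids were selected, and over all 18052 genes Pearson's r was 0.31 and Spearman's rho 0.44.

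Across the 18052 genes tested, the vector and TRPML3 responses of replicates 1 and 2, which share no library, correlated across genes with r = 0.31 (Pearson) and rho = 0.44 (Spearman), as a description. Genes are not independent replicates. Over all genes little pairing of same-numbered libraries was seen, though their mitochondrial shares went together, as the closing section reports. The medians of FOXO and MondoA targets were -0.60 in vector and -0.99 in TRPML3 cells, and those of immediate early genes -0.61 and -0.76.

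**Figure D5:**
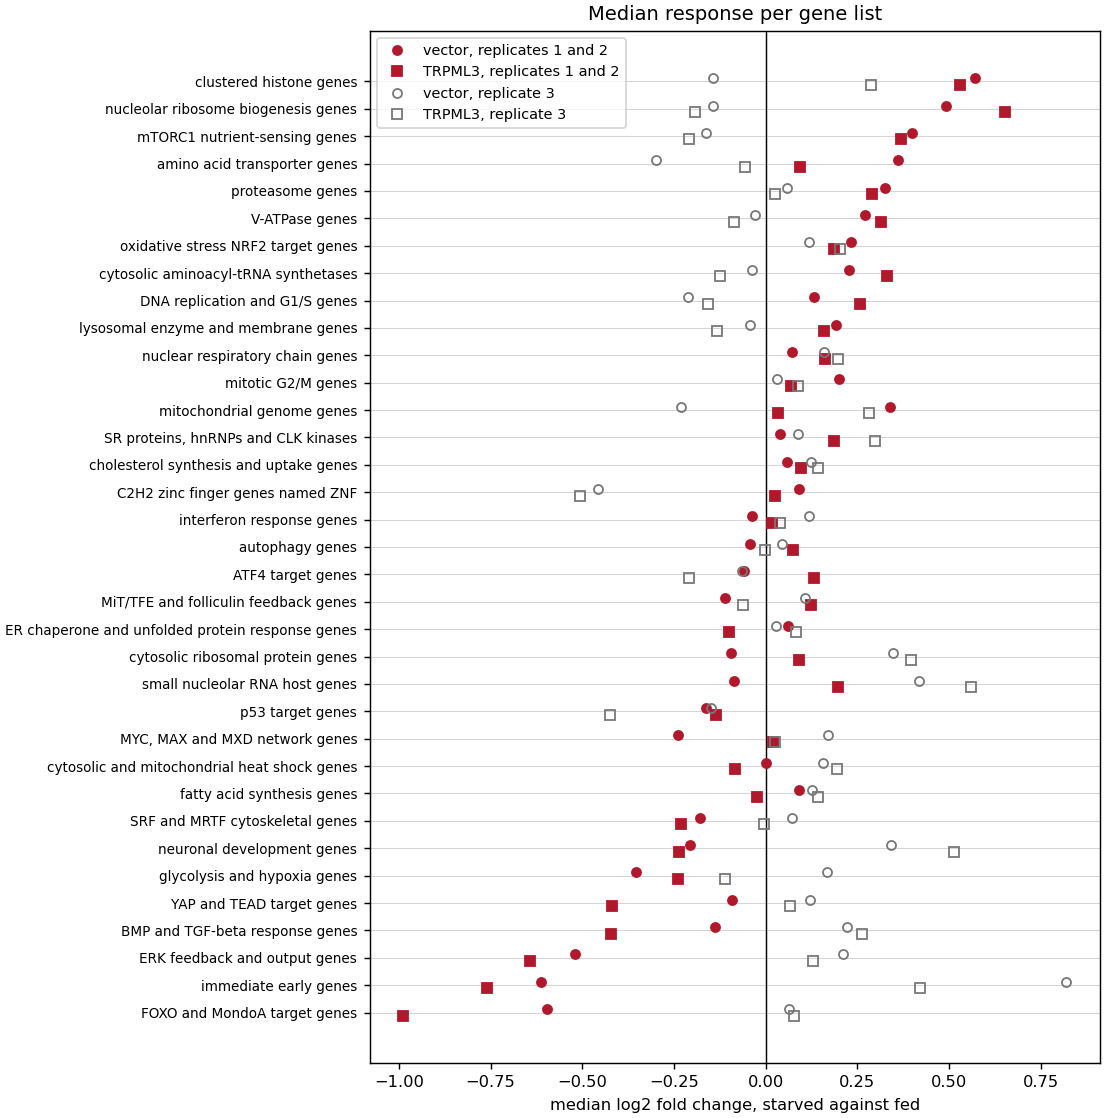
Median log2 fold change of the tested members of each gene list in vector (circles) and TRPML3 cells (squares), for replicates 1 and 2 (filled) and replicate 3 (open). The immediate early genes lie at -0.61 and -0.76 in replicates 1 and 2 and at 0.82 and 0.42 in replicate 3, and the nucleolar genes at 0.49 and 0.65 against -0.14 and -0.19.

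Replicate 3 did not repeat the response. Of the 650 genes called higher, 29.2% were higher in the starved than the fed vector library of replicate 3 and 24% in the TRPML3 pair, and 63.2% were lower in both. Of the 526 called lower, 33.3% and 29.8% were lower, and 55.7% were higher in both. Among all genes tested 51.4% and 51.1% were higher in these pairs. The correlation across genes of the response with the replicate 3 differences was -0.13 in vector and -0.15 in TRPML3 cells (Pearson's r over 18052 genes, which share no library). The median of the immediate early genes turned from -0.65 to 0.82 and 0.42. Some genes kept their direction there, chosen for naming after their values were seen. The polymerase subunit gene POLR1C was higher by 0.57 in vector and 0.77 in TRPML3 cells, GNL3 by 0.50 and 0.48, and SLC16A6 stood at -1.19 and -1.55.

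Average starvation over all 12 libraries is the test whose libraries were not chosen on its result. It called 0 of 18030 genes (edgeR, smallest adjusted p 0.11, for SLC16A6 and DNAH17), while 1704 (9.45%) had an unadjusted p under 0.05 and the DESeq2 Wald test called 276. Of the genes of the response, 245 called higher and 269 called lower kept their direction at an unadjusted p under 0.05 over the 12 libraries, which include the 8 that selected them. The median log2 fold change shrank from 0.94 to 0.44 and from -1.04 to -0.66. SLC16A6 was at -2.90, SPRY4 at -3.14 with an adjusted p of 0.342, CCNG2 at -0.85 with 0.428 and RRS1 at 0.73 with 0.565 (all edgeR, Benjamini-Hochberg).

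Gene models of the called genes were taken from GENCODE release 29 on GRCh38, in which 93.7% of the higher, 97.5% of the lower and 95.1% of all tested genes were found, and the values are a description with no test. Protein-coding genes that were higher spanned a median of 21.1 kb, those lower 43.3 kb and all tested ones 33.9 kb. Coding genes were put into 4 bins of equal size by span. In the shortest bin 5.71% were higher and 2.81% lower, and in the longest bin 1.81% and 4.3%. The median log2 fold change was 0.08 in the shortest and -0.13 in the longest bin. In replicate 3 these medians were 0.07 and 0.00 in both plasmids, also higher in the shortest bin. The median fed level was 28.8 CPM for genes called higher, 19.6 CPM for genes called lower and 10.2 CPM for all tested. In starved cells these medians were 58.5, 8.6 and 10.3 CPM.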

How the data were processed

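HEK293T polyA RNA-seq libraries (3 replicates in each of 4 groups) were used as deposited. The authors deposited whole-number counts per gene, and a table of normalised signal in which each library's counts are divided by a constant. Per the submitters' processing notes, FastQC, fastp, HISAT2, StringTie, DESeq2 and the build GRCh38 were used. Their roles and versions, the annotation and the use of strand are not given in the sources used here, so reads of overlapping and antisense genes cannot be told apart.

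Counts were analysed with edgeR 4.0.16 in R 4.3.3 (filterByExpr, TMM scaling, robust quasi-likelihood fit, Benjamini-Hochberg adjustment over all genes tested, threshold 0.05). Fits covered starved against fed cells in replicates 1 and 2 with plasmid as a block, the plasmid by starvation interaction in the same libraries, and average starvation in all 12. Replicate 3 differences are log2 ratios of CPM + 0.5. SE is the size of the log2 fold change divided by the square root of F. Alternatives used DESeq2 1.42.0, limma 3.58.1 on the deposited normalised signal, other filters and scalings, and left-out libraries. The fitting code was tested on simulated data.

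Members and gene lists were chosen with earlier results of these data known. Named genes are the 10 highest and 10 lowest called genes by log2 fold change (at least 5 CPM in a group, no overlap) and up to 4 called members per list by smallest p, or the most abundant member where none was called. Further called list members are named to account for the counts. Totals of 33101540 to 43700547 counts put 3 counts at 0.0686 to 0.0906 CPM, which covers counting error only. Some called list members are counted but not reported here by name.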

Additional observations from a re-analysis of the deposited data

How the results depend on the processing

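The starvation response in replicates 1 and 2 comprised 1176 genes (650 higher, 526 lower). The DESeq2 Wald test called 3108 (1595 higher, 1513 lower), with all 1176 among them. An adjusted p under 0.01 left 3 (2 higher, 1 lower), a log2 fold change of at least 1 left 572 (290 and 282), and testing with no filter gave 811, of which 427 were higher. The count ran from 0 to 511 with a library or a replicate number left out (0 to 329 higher, 0 to 191 lower). Without replicate 1 or 2, 0 genes were called by edgeR, with 1931 and 1916 at an unadjusted p under 0.05. Under these alternatives 0 of the 1176 genes turned to the opposite direction. This was nearly fixed in advance, since the same 8 libraries selected the genes and most had no overlap between starved and fed libraries.

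The interaction, with 0 genes called, gave 135 by the DESeq2 Wald test (64 higher, 71 lower) and 1 with no filter (1 higher). With a library left out it gave 0 to 7 (0 to 3 higher, 0 to 5 lower): 7 without TRPML3 starved 2, 4 without TRPML3 starved 1, 4 without vector starved 2, 2 without TRPML3 fed 1 and 1 without vector fed 2. Average starvation in all 12 libraries, with 0 called, gave 276 by the DESeq2 Wald test (145 higher, 131 lower). The cause of these differences was not tested.

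The replicate numbers share no stated day or culture. Differences of replicate 1 from replicate 2 had correlations between groups of 0.00025 to 0.032, so over all genes little pairing by number was seen. The mitochondrial share, however, was higher in replicate 1 than in replicate 2 in each group. It was 4.4% against 1.07% in vector fed, 3.08% against 1.26% in vector starved, 3.37% against 2.52% in TRPML3 fed and 2.81% against 1.05% in TRPML3 starved cells. Shared handling by number was not tested. A replicate block gave 816 response genes (465 higher, 351 lower), 0 for the interaction and 0 over all 12 libraries.

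Of log2 fold changes of named genes under other settings, 1530 kept direction and side of the threshold, 762 lost the call, 1 gained it and 6 reversed. ATP6V1A (-0.01) turned to 0.136 without vector fed 2, 0.203 without vector starved 1, 0.0569 without TRPML3 fed 1 and 0.27 without replicate 1, with values from -0.347 to 0.27 over all left-out libraries and replicates. CCNG1 (0.32) turned to -0.0373 without TRPML3 starved 2 (range -0.0373 to 0.831), and SCD (-0.24) to 0.188 without replicate 2 (range -0.553 to 0.188). None of these genes had been called. Depth limits genes near the floor of 3 counts.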

Other observations

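Zinc finger genes in 1 stretch of chromosome 19 are given as a group chosen after its values were seen, with no test. Of 22 tested genes named ZNF that start between 11 and 13 Mb on chromosome 19 (GENCODE release 29, GRCh38), 6 were called lower (ZNF442, ZNF709, ZNF823, ZNF433, ZNF44 and ZNF441) and 0 higher, against 2.91% of all genes tested called lower. The other 16 were not called, and 18 of the 22 had a negative log2 fold change. Their median was -1.03 in replicates 1 and 2, against 0.04 for 195 genes named ZNF elsewhere on chromosome 19. The other 43 tested genes of the same stretch, with 1 called higher and 3 lower, had a median of 0.06. In replicate 3 the median of the 22 was -0.39 in vector and -0.54 in TRPML3 cells, while the 195 elsewhere on the chromosome had medians of -0.52 and -0.70, so the stretch did not stand lower than the rest there. These genes are paralogs that share sequence, so their counts are uncertain.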
